A study of Homo sapiens with 14 samples.

Results

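Collagen chain genes are described here in the lung adenocarcinoma cell lines A549 and H1792, with and without the Aurora kinase inhibitor AMG900. The members were all genes whose symbol is COL, a number, A and a number, and 44 of the 26732 genes listed in both count tables met that rule. Cells of each line had been given 0.1 µM AMG900 or its solvent DMSO, and RNA was sequenced 48 hours later. A549 was grown in DMEM and H1792 in RPMI, so a difference between the lines cannot be told apart from one between media, count tables or runs. The groups were A549 with DMSO (n = 4), A549 with AMG900 (n = 4), H1792 with DMSO (n = 3) and H1792 with AMG900 (n = 3). Replicates were dishes of 1 established line, so p-values measure the spread between dishes and not between tumors. The comparisons ask which chains each line expresses, which chains differ with AMG900 in each line, whether the effect differs between the lines, and how the fibrillar chains compare with the other collagens.

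A collagen molecule is a trimer of chains wound around each other, and each type is defined by which chains it holds. Fibrillar collagens (types I, II, III, V, XI, XXIV and XXVII) form the rope-like fibrils of stroma. Type IV collagens form the sheet of the basement membrane on which epithelial cells rest, type VI forms beaded filaments, type VII anchors the basement membrane to the stroma, and the fibril-associated collagens (FACITs) decorate fibril surfaces. Transmembrane collagens sit in the cell membrane, and the multiplexins COL15A1 and COL18A1 lie in basement membrane zones. In lung tumors fibrillar collagen is best known as a product of fibroblasts, while carcinoma cells and epithelia are known for type IV, type VII and type XVII chains.

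The libraries held between 4248944 and 18940099 counts in A549 and between 42760874 and 79902934 in H1792, so a weakly expressed chain could be followed further down in H1792. Levels are given as CPM (counts scaled to a common library size with normalization factors), and are divided by transcript length (CPM per kb) where genes are compared with each other. A549 DMSO replicate 1 was the smallest library and stood apart on the second principal component of A549 (score -50.6, against 18.7 to 20.7 in the other DMSO libraries). H1792 DMSO replicates 1 and 2 lay at opposite ends of the second component of H1792 (-27.4 and 30.0). Keratin genes were expressed in both lines, with KRT7 at 3500 to 4733 CPM in A549 and 881 to 1107 CPM in H1792 under DMSO. EPCAM was only at 0.0910 to 0.523 CPM in A549 and CDH1 at 0.570 to 0.739 CPM in H1792. Of 6 epithelial markers 1 was higher and 5 were lower in H1792 than in A549 with DMSO (edgeR adjusted p under 0.01). Of 7 mesenchymal markers 5 were higher, such as VIM (2272 to 2607 against 1395 to 1670 CPM). SNAI2 was lower (1.65 to 2.59 against 8.46 to 17.5 CPM). Over all genes tested 34.2% were higher and 31.9% lower. Among 8 fibroblast markers, DCN was at 27.6 to 32.2 CPM and PDGFRA at 10.9 to 12.9 CPM in H1792 with DMSO, while both were under 1 CPM in A549. FAP and TCF21 were under 1 CPM in H1792. THY1 and ACTA2 went the other way, at 5.23 to 8.93 and 51.8 to 57.3 CPM in A549 against 0 to 0.0306 and 14.8 to 16.2 CPM in H1792. With DMSO the 8 markers summed to 58.8 to 68.4 CPM in A549 and 70.9 to 76.6 CPM in H1792. With AMG900 they summed to 203 to 208 CPM in A549, where ACTA2 was at 190.3 to 196 CPM, and to 62.6 to 64.9 CPM in H1792. Of 4 blood cell markers, PTPRC, CD3E and LYZ were at most 0.119 CPM in any DMSO library. CD68, a lysosomal protein known from macrophages, was at 58.3 to 83.2 CPM in A549 and 97.3 to 113 CPM in H1792 with DMSO and rose with AMG900 in both (1.09 and 0.78 on the log2 scale). Of 4 endothelial markers, PECAM1 was at 3.59 to 5.42 CPM in H1792 with DMSO and rose to 7.15 to 8.13 CPM with AMG900. VWF varied between 0.275 and 10.6 CPM among the H1792 DMSO libraries. CDH5 was at most 0.103 CPM in H1792 with DMSO and at 0.283 to 0.467 CPM with AMG900. It passed a filter on low counts there only through its AMG900 libraries, so its difference is given as a description. In A549 no endothelial marker had enough counts to test. The part of any other cell type in the collagen levels was not tested.

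Under DMSO the lines expressed different sets of chains. Per kb of transcript the leading chains in A549 were COL18A1 (89.4 CPM per kb), COL4A2 (70.0), COL5A1 (44.7), COL5A2 (25.3), COL4A1 (24.4) and COL7A1 (20.1). In H1792 they were COL1A1 (391 CPM per kb), COL1A2 (269), COL7A1 (64.5), COL6A1 (60.9), COL5A1 (56.4) and COL6A2 (44.2). Only COL5A1 and COL7A1 stood in both of these lists. In the fit over both lines (edgeR's quasi-likelihood test, Benjamini-Hochberg adjusted p under 0.01, as for every call below), 32 members had enough counts. Of these, 17 were higher in H1792, beside 34.2% of all genes tested, and 8 were lower, beside 31.9%. Some members, such as COL3A1, COL8A1, COL4A1 and COL11A1, passed the filter on low counts only through the line where they were high, so these counts are a description. With a minimum of 10 counts in every library only 13 members were tested, of which 9 were higher and 3 lower. In the fit of 32 members all 3 tested beaded filament chains were higher in H1792, at log2 differences of 1.99 to 4.42. Of the 6 basement membrane chains 0 were higher there in edgeR, where 1 had an unadjusted p under 0.05, or in DESeq2, and 2 were lower. That 1 chain, COL4A5, passed as higher with an offset for transcript GC content (0.27 ± 0.08, adjusted p = 0.0043) and with a minimum of 10 counts in every library. COL18A1 counts may be affected by a neighbor, in a direction that is not known here. In the canonical GENCODE transcripts its exons share 1156 bases with SLC19A1 on the opposite strand, and the counting is not stated to use strand.

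**Figure D1:**
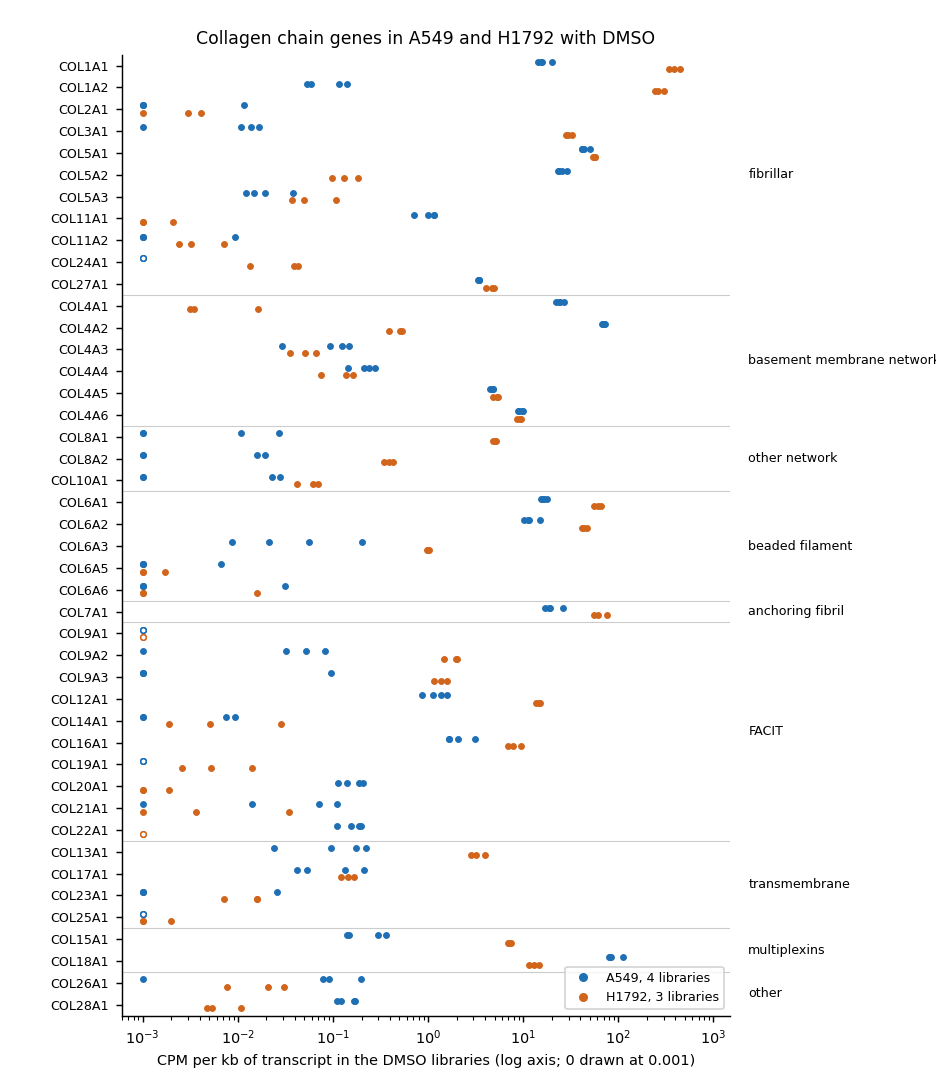
CPM per kb of transcript (log axis) of the 44 collagen chain genes in each DMSO library, grouped by class, with A549 in blue and H1792 in orange. Libraries at 0 are drawn at 0.001, and open points mark genes at 0 in every DMSO library of a line. COL1A1, COL1A2 and COL3A1 lie far to the right in H1792, while COL4A1, COL4A2, COL5A2 and COL11A1 lie far to the right in A549.

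In A549, 23 of the 44 members had enough counts to test AMG900 against DMSO. Of these 8 rose, beside 17.2% of all genes tested, and 2 fell, beside 17.8%. One of the 8, COL26A1, passed the filter on low counts only through its AMG900 libraries, so 7 rose without it. The median log2 fold change was 0.57 over the 23 members, COL26A1 included, and -0.01 over all genes tested. The fibrillar chains and the others differed in their counts. Among 5 fibrillar chains 1 rose and 2 fell, with a median of -0.05, and among 18 other chains 7 rose, COL26A1 included, and 0 fell, with a median of 0.75. No other chain had an unadjusted p under 0.05 for a fall, and DESeq2 called 0 as well. Every AMG900 library lay above every DMSO library for 10 of the 23 members, beside 21.9% of all genes tested, and below for 2, beside 22.0%. The 10 include COL26A1, so this count is a description. In H1792, 28 members were tested, of which 8 rose, beside 16.2% of all genes tested, and 8 fell, beside 18.8%. Among 8 fibrillar chains 1 rose and 4 fell, with a median log2 fold change of -0.08, and among 20 other chains 7 rose and 4 fell, with a median of 0.31. The median over all genes in H1792 was 0.01. The groups did not overlap for 11 members that were higher, beside 30.1% of all genes tested, and for 8 that were lower, beside 29.6%. The 11 include COL10A1, at 6 to 15 counts with DMSO and 15 to 47 with AMG900. COL10A1 passed the filter on low counts only through its AMG900 libraries, so this count too is a description. With an offset for transcript GC content the split became 4 higher and 3 lower in A549, and 5 higher and 11 lower in H1792. By class, fibrillar chains were then 0 higher and 3 lower in A549 (median -0.38) and 0 higher and 4 lower in H1792 (-0.24). The other chains were 4 higher and 0 lower in A549 (0.51) and 5 higher and 7 lower in H1792 (0.10). Collagen transcripts are rich in G and C, with values given beside the GC plot.

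**Figure D2:**
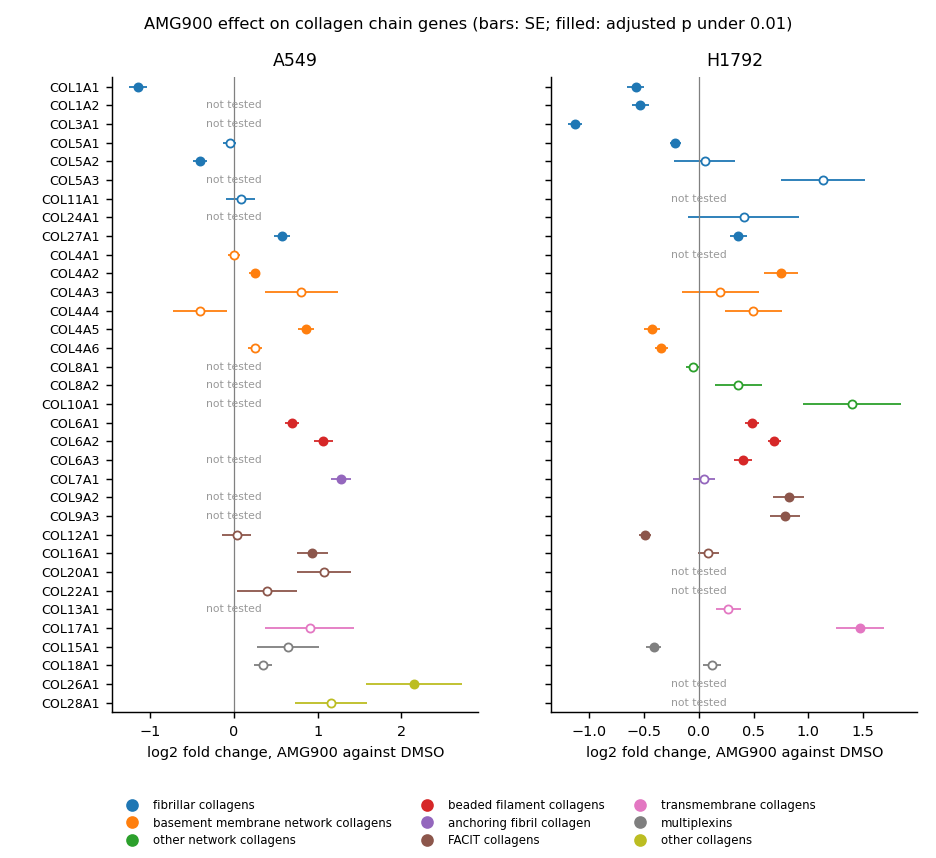
Log2 fold change of AMG900 against DMSO (x axis) with its SE for the 34 members tested in A549 (left) or H1792 (right), colored by class, with filled points where the adjusted p was under 0.01. COL1A1 is to the left of 0 in both lines, COL6A1 and COL6A2 are to the right in both, and COL4A5 lies on opposite sides.

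Type I and type III collagen set the lines apart. COL1A1, the major chain of type I collagen (chromosome 17 at 48261462-48278993, GRCh37), was at 2638, 2031 and 2266 CPM in the 3 H1792 DMSO libraries, and COL1A2, its partner chain, was at 1531, 1228 and 1337 CPM. In A549 COL1A1 was at 119.8, 91.1, 93.7 and 84.5 CPM, but COL1A2 had only 3, 3, 4 and 10 counts, or 0.273 to 0.705 CPM. The per-kb ratio of COL1A1 to COL1A2 was therefore 1.45 ± 0.0297 (SD, n = 3) in H1792 and lay between 122 and 286 in A549. COL1A1 chains are also known to form trimers without COL1A2, but the protein was not measured here. COL3A1, the only chain of type III collagen, was at 180.0, 156 and 163 CPM in H1792 and had at most 1 count in any A549 DMSO library.

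COL1A1 fell with AMG900 in both lines. It was at 38.6, 45.2, 43.1 and 47.4 CPM in the AMG900 libraries of A549, all below the 4 DMSO libraries, a log2 fold change of -1.14 ± 0.11 (SE; adjusted p = 9.89e-07). In H1792 it was at 1565, 1524 and 1552 CPM with AMG900, again below every DMSO library (-0.58 ± 0.08, adjusted p = 2.15e-04). COL1A2 in H1792 was at 898, 957 and 975 CPM with AMG900 (-0.53 ± 0.08, adjusted p = 2.36e-04), so the per-kb ratio of the pair was 1.41 ± 0.0748 (SD, n = 3) after treatment. COL3A1 fell further, to 73.2, 75.1 and 79.8 CPM (-1.13 ± 0.07, adjusted p = 1.92e-06). In A549 COL1A2 and COL3A1 had too few counts to test. The effect on COL1A1 differed between the lines by 0.48 ± 0.14 on the log2 scale (edgeR adjusted p = 0.0181; DESeq2 adjusted p = 4.51e-03), so edgeR did not call the difference and DESeq2 did. With edgeR it passed with total counts (0.57 ± 0.13, adjusted p = 3.53e-03), with the GC offset (0.69 ± 0.11, adjusted p = 1.21e-04), with no filter and without H1792 DMSO replicate 1.

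Type V collagen, a minor fibrillar collagen that starts and limits type I fibrils, showed the opposite gap between partner chains. COL5A1 was well expressed in both lines, at 429, 353, 372 and 355 CPM in A549 with DMSO and at 483, 463 and 483 CPM in H1792. COL5A2 was at 197, 175, 163 and 157 CPM in A549 and at only 1.25, 0.882 and 0.661 CPM in H1792. The per-kb ratio of COL5A1 to COL5A2 was 1.77 ± 0.0996 (SD, n = 4) in A549 and 312 to 591 in H1792. H1792 thus had COL5A1 with little COL5A2, and A549 had COL1A1 with little COL1A2.

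With AMG900 COL5A2 fell in A549 to 129, 130.4, 134 and 127 CPM, below every DMSO library (-0.41 ± 0.08, adjusted p = 6.32e-04). COL5A1 was at 331, 379, 352 and 394 CPM there, overlapping the DMSO libraries (log2 fold change -0.05, 95% interval -0.20 to 0.11). With an offset for transcript GC content COL5A1 passed the test as lower in A549 (-0.42 ± 0.06, adjusted p = 1.18e-04). In H1792 COL5A1 was at 417, 410.4 and 403 CPM with AMG900 (-0.22 ± 0.05, adjusted p = 3.41e-03). That call was lost without any 1 of the 3 AMG900 libraries or without DMSO replicate 3 (adjusted p up to 0.0241). COL5A2 in H1792 had a log2 fold change of 0.05 (95% interval -0.49 to 0.60).

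COL27A1, a fibril-forming chain best known from cartilage, was the fibrillar member that went the other way. It was at 26.8, 26.6, 26.8 and 25.9 CPM in A549 with DMSO and at 34.9, 42.4, 40.4 and 39.6 CPM with AMG900, with no overlap (0.57 ± 0.10, adjusted p = 2.35e-04). In H1792 it was at 38.6, 32.0 and 37.1 CPM with DMSO and at 46.9, 47.4 and 44.01 CPM with AMG900 (0.36 ± 0.08, adjusted p = 3.25e-03). The H1792 call was lost without AMG900 replicate 1, AMG900 replicate 2 or DMSO replicate 3 (adjusted p up to 0.0207). With the GC offset neither line kept it, at log2 fold changes of 0.18 ± 0.09 in A549 and 0.05 ± 0.06 in H1792. Of the remaining fibrillar members, COL11A1, a cartilage chain that pairs with type V chains in other tissues, was at 5.17 to 8.47 CPM in A549 with DMSO and 0 to 0.0153 CPM in H1792. COL2A1, COL11A2 and COL24A1 were under 1 CPM in every library, and COL5A3 was at 0.228 to 0.673 CPM in H1792 with DMSO and 0.759 to 1.02 CPM with AMG900, which did not pass the test (adjusted p = 0.0312).

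**Figure D3:**
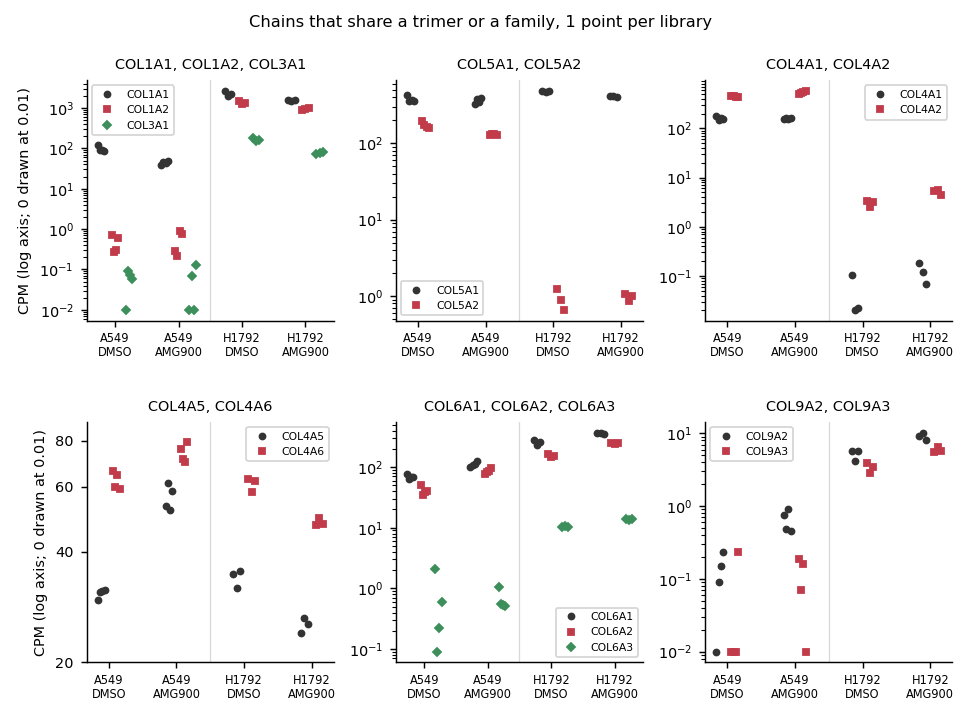
CPM (log axis) of chains that share a trimer or a family, 1 point per library, for the 4 groups; libraries at 0 are drawn at 0.01. COL1A2 and COL3A1 are near the bottom in A549, COL5A2, COL4A1 and COL4A2 are near the bottom in H1792, and COL4A5 and COL4A6 start level in both lines and part with AMG900.

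Type IV chains are encoded as pairs of genes that face away from each other from neighboring starts. COL4A1 and COL4A2, which make the common type IV collagen of basement membranes, lie on chromosome 13 at 110801310-110959504 and 110958159-111165556 (GRCh37), and the starts of their canonical transcripts are 127 bases apart. COL4A1 was at 177, 146, 161 and 155 CPM in A549 with DMSO and at 0.107, 0.0205 and 0.0228 CPM in H1792, where it had 1 to 7 counts. COL4A2 was at 459, 463, 443 and 439 CPM in A549 and at 3.39, 2.52 and 3.24 CPM in H1792. Both were therefore lower in H1792 (log2 differences of -11.26 ± 0.20 and -7.10 ± 0.12), and the per-kb ratio of COL4A1 to COL4A2 was 0.349 ± 0.0290 (SD, n = 4) in A549 against 0.00694 to 0.0311 in H1792. The 126 bases between the RefSeq starts of the pair are shown because both genes are read outward from this stretch and both are low in H1792. It lies at chr13:110307158-110307283 of GRCh38.p14 and is printed on the plus strand, from COL4A1 on its left to COL4A2 on its right, with capitals for a CCAAT box and a GC box (GGGCGG).
COL4A1-COL4A2: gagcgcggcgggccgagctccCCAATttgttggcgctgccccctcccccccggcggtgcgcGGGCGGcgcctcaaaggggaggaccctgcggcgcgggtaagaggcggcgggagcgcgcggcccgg
The stretch is 80.2% G and C and holds 1 CCAAT and 1 GGGCGG on the plus strand and no TATAAA on either strand. Of 35116 RefSeq windows running from 250 bases before a start to 50 from it, 34.6% hold CCAAT, 45% hold GGGCGG and 11.5% hold TATAAA on at least 1 strand, so neither match is rare. RefSeq windows were found for 32 of the 44 members.

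With AMG900 COL4A2 rose in A549 and COL4A1 was not called, and the difference between both genes was not tested. COL4A1 was at 158, 165, 157 and 159 CPM with AMG900, within the range of the DMSO libraries (log2 fold change 0.00, 95% interval -0.14 to 0.14). COL4A2 was at 495, 519, 558 and 573 CPM, above every DMSO library (0.25 ± 0.06, adjusted p = 5.41e-03). This call held without A549 DMSO replicate 1 or AMG900 replicate 1 and was lost without any 1 of the other 6 libraries (adjusted p up to 0.0232), and with the GC offset the value turned to -0.15 ± 0.06. In H1792 COL4A2 was at 5.44, 5.65 and 4.36 CPM with AMG900, above the DMSO libraries (0.75 ± 0.16, adjusted p = 2.58e-03), a call lost without AMG900 replicate 1 or 2 (adjusted p up to 0.0167) and with the GC offset (0.44 ± 0.14). COL4A1 in H1792 had 4 to 14 counts per AMG900 library and was not tested. An antisense gene, COL4A2-AS1, shares 81 exon bases with COL4A2, and reads of either strand cannot be told apart here.

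COL4A5 and COL4A6, a pair on the X chromosome at 107683068-107940775 and 107398837-107682727 (GRCh37), had nearly the same level in both lines with DMSO, and COL4A5 moved in opposite directions with AMG900. COL4A5, which joins the type IV trimers of kidney, lung and skin basement membranes, was at 29.6, 31.0, 31.3 and 31.4 CPM in A549 with DMSO and at 34.8, 31.8 and 35.5 CPM in H1792 (log2 difference 0.23, 95% interval 0.07 to 0.40, adjusted p = 0.0198). COL4A6 was at 66.3, 59.8, 64.5 and 59.2 CPM in A549 and at 63.0, 57.9 and 62.1 CPM in H1792 (0.07, 95% interval -0.07 to 0.21). With AMG900 COL4A5 rose in A549 to 53.1, 61.3, 51.8 and 58.5 CPM (0.86 ± 0.09, adjusted p = 2.97e-06). In H1792 it fell to 24.1, 26.4 and 25.5 CPM (-0.43 ± 0.07, adjusted p = 7.11e-04), and neither line's groups overlapped. The effect was 1.36 lower in H1792 than in A549 (interaction -1.36 ± 0.12, adjusted p = 7.01e-08).

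COL4A6 followed its neighbor in H1792, at 47.2, 49.5 and 47.5 CPM with AMG900 (-0.35 ± 0.06, adjusted p = 8.12e-04). In A549 it was at 75.9, 71.3, 69.9 and 79.5 CPM, above the DMSO libraries, but did not pass the test (0.25 ± 0.08, adjusted p = 0.0182) in that fit. It passed without DMSO replicate 1 and with a minimum of 10 counts in every library (adjusted p = 8.91e-03). With the GC offset COL4A6 was at 0.06 ± 0.08 in A549 (adjusted p = 0.516), and with total counts at 0.17 ± 0.08 (adjusted p = 0.0809). Its interaction with line was -0.67 ± 0.10 (adjusted p = 8.17e-05). The per-kb ratio of COL4A5 to COL4A6 went from 0.507 ± 0.0386 to 0.777 ± 0.0708 (SD, n = 4) in A549 and from 0.571 ± 0.0123 to 0.540 ± 0.0142 (SD, n = 3) in H1792. COL4A3 and COL4A4, the pair of kidney and lung basement membranes, stayed between 0.235 and 2.73 CPM in every library of both lines, and neither passed the test in either line.

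Beaded filament chains rose in both lines, 2 of 2 tested in A549 and 3 of 3 in H1792, beside 17.2% and 16.2% of all genes tested. With the GC offset 2 of 3 kept the call in H1792. COL6A1 and COL6A2, the core chains of type VI collagen, lie in tandem on chromosome 21 at 47401684-47424964 and 47518026-47552762 (GRCh37). COL6A1 was at 75.4, 64.4, 68.9 and 68.2 CPM in A549 with DMSO and at 102, 107, 110.3 and 126 CPM with AMG900 (0.69 ± 0.08, adjusted p = 1.23e-05). In H1792 it went from 277, 234 and 257 CPM to 367, 362 and 347 CPM (0.49 ± 0.06, adjusted p = 1.55e-04). COL6A2 went from 51.5, 34.9, 38.9 and 40.1 CPM to 77.0, 81.8, 86.2 and 96.5 CPM in A549 (1.07 ± 0.11, adjusted p = 2.93e-06). In H1792 it went from 162, 144 and 152 CPM to 249, 244 and 245 CPM (0.69 ± 0.06, adjusted p = 9.66e-06). For both genes no AMG900 library overlapped a DMSO library of its line, and both kept their calls with the GC offset, at 0.26 ± 0.06 and 0.61 ± 0.07 in A549 and 0.15 ± 0.04 and 0.34 ± 0.05 in H1792.

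The third chain of type VI collagen was scarce in A549. COL6A3 had 1 to 10 counts per A549 DMSO library, and in H1792 it was at 10.2, 10.8 and 10.5 CPM with DMSO and 14.04, 13.5 and 13.9 CPM with AMG900 (0.40 ± 0.08, adjusted p = 1.87e-03). That call was lost without AMG900 replicate 1 or DMSO replicate 3 (adjusted p up to 0.0122) and with the GC offset (0.26 ± 0.08). Per kb COL6A1 exceeded COL6A3 by 61.4 ± 6.70 times (SD, n = 3) in H1792 with DMSO, while COL6A1 and COL6A2 stood at 1.38 ± 0.0354 to 1. COL6A5 and COL6A6, which can take the place of COL6A3, had at most 6 counts in any library. The 100 bases before the RefSeq start of COL6A2 (chr21:46098012-46098111 of GRCh38.p14, plus strand) are shown as the promoter of a chain that rose in both lines, with capitals for TATAAA and GGGCGG on either strand.
COL6A2: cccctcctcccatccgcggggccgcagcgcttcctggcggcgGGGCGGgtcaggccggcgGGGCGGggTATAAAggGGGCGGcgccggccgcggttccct
This stretch holds 1 TATAAA and 3 GGGCGG, all on the strand of the gene, and is 81.0% G and C. COL6A2 was among 7 of 32 members with a window that held TATAAA on either strand.

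COL7A1, the only chain of the anchoring fibrils under stratified epithelia, had the lowest adjusted p among the members that rose in A549 and was not called in H1792. The gene lies on chromosome 3 at 48601506-48632762 (GRCh37). It was at 241, 157, 175 and 171 CPM in A549 with DMSO and at 419, 448, 413 and 515 CPM with AMG900, with a wide gap between the groups (1.28 ± 0.12, adjusted p = 6.49e-07). In H1792 its level was higher to begin with, at 710.4, 509 and 568 CPM with DMSO, and it was at 588, 633 and 627 CPM with AMG900, inside the range of the DMSO libraries (0.05, 95% interval -0.15 to 0.25). Without H1792 DMSO replicate 1, the highest of these, COL7A1 passed the test as higher (adjusted p = 9.34e-03), and with the GC offset it passed as lower (-0.29 ± 0.06, adjusted p = 1.35e-03), so no direction is given for H1792. The effects in the lines differed by -1.31 ± 0.18 (adjusted p = 1.73e-05), and by -1.09 ± 0.11 with the GC offset. Its promoter is shown because COL7A1 rose in A549, as the 100 bases before the start at chr3:48595330-48595429 of GRCh38.p14, on the minus strand, with GGGCGG of either strand in capitals.
COL7A1: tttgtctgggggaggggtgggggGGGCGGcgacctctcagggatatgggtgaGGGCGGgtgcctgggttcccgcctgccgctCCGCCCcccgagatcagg
It holds 2 GGGCGG on the strand of the gene and 1 on the other strand, no CCAAT and no TATAAA in these 100 bases. Its longer RefSeq window does hold TATAAA, and COL7A1 is among the same 7 members as COL6A2.

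The FACIT collagens split within the class. COL12A1, which coats type I fibrils, was at 161, 173 and 176 CPM in H1792 with DMSO and fell to 118, 122 and 123 CPM with AMG900 (-0.49 ± 0.05, adjusted p = 4.95e-05). In A549 it was at 10.1 to 18.4 CPM with DMSO and at 12.1 to 16.9 CPM with AMG900 (0.03, 95% interval -0.30 to 0.37). COL16A1, a chain found near cell adhesions and small fibrils, rose in A549 from 16.9, 11.1, 8.97 and 9.02 CPM to 18.1, 23.2, 18.6 and 24.0 CPM (0.94 ± 0.19, adjusted p = 8.20e-04). The highest DMSO library, replicate 1, lay just under the lowest AMG900 library, and the call was lost with the GC offset (0.53 ± 0.17, adjusted p = 0.0192). In H1792 COL16A1 was at 51.2, 37.9 and 42.1 CPM with DMSO and at 45.5, 46.7 and 47.3 CPM with AMG900 (0.09, 95% interval -0.10 to 0.28), and with the GC offset it was -0.23 ± 0.06.

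Of the type IX chains, which cover type II fibrils in cartilage, COL9A2 and COL9A3 rose together in H1792. COL9A2 went from 5.75, 4.17 and 5.65 CPM to 9.30, 10.2 and 8.09 CPM (0.82 ± 0.14), and COL9A3 from 3.93, 2.87 and 3.44 CPM to 5.52, 6.45 and 5.79 CPM (0.79 ± 0.14). Their partner COL9A1 had at most 1 count in any library, and the per-kb ratio of COL9A2 to COL9A3 was 1.33 ± 0.0941 with DMSO and 1.36 ± 0.128 (SD, n = 3) with AMG900. COL9A3 shares 155 exon bases with TCFL5 on the opposite strand. In A549 both had at most 17 counts and were not tested. COL14A1, COL19A1 and COL21A1 were under 1 CPM in every library of both lines. COL20A1 and COL22A1 were seen in A549, at 0.910 to 1.65 CPM and 0.705 to 1.27 CPM with DMSO, and neither passed the test there with all libraries. COL20A1 was at 1.80 to 3.49 CPM with AMG900, above every DMSO library (1.08 ± 0.32, adjusted p = 0.0131). It passed without DMSO replicate 1 or AMG900 replicate 1, and with the GC offset it was at 0.67 ± 0.31 (adjusted p = 0.0886).

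COL17A1, the transmembrane collagen of hemidesmosomes, had the largest rise among the members called in H1792, from a low level. It was at 0.933, 0.677 and 0.798 CPM with DMSO (33 to 61 counts) and at 2.61, 2.22 and 1.89 CPM with AMG900, with no overlap (1.47 ± 0.22, adjusted p = 3.49e-04). In A549 it was at 0.235 to 1.18 CPM with DMSO and 0.486 to 1.70 CPM with AMG900 (0.91, 95% interval -0.14 to 1.95), and its interaction with line had an adjusted p of 0.600. COL13A1, a transmembrane chain of cell adhesion sites, was at 8.96 to 12.4 CPM in H1792 with DMSO and 12.1 to 13.3 CPM with AMG900 (adjusted p = 0.0796) and under 1 CPM in A549. COL23A1 and COL25A1 had at most 5 counts in any library.

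The multiplexins stood on opposite sides under DMSO, with COL18A1 lower in H1792 (log2 difference -2.67 ± 0.12) and COL15A1 higher (5.17 ± 0.19). COL18A1, the source of endostatin, was at 607, 431, 456 and 440 CPM in A549 with DMSO and at 555, 585, 603 and 714 CPM with AMG900 (0.35 ± 0.11, adjusted p = 0.0143). DMSO replicate 1 lay among the AMG900 libraries, and without it COL18A1 passed the test (adjusted p = 2.20e-06), but with the GC offset its log2 fold change was -0.09 ± 0.05. In H1792 it was at 79.2, 61.9 and 70.4 CPM with DMSO and 78.4, 78.1 and 73.8 CPM with AMG900 (0.12, 95% interval -0.04 to 0.28). COL15A1, a basement membrane chain of muscle and vessels, fell in H1792 from 36.4, 37.1 and 39.3 CPM to 29.4, 28.1 and 27.1 CPM (-0.41 ± 0.07, adjusted p = 5.28e-04). In A549 it was at 0.728 to 1.88 CPM with DMSO and 1.46 to 2.11 CPM with AMG900 (0.65, 95% interval -0.08 to 1.37).

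The remaining members had few counts or were not called. COL26A1 had the largest fold change called in A549 and few counts, at 1, 3, 0 and 10 counts with DMSO and 19, 16, 26 and 18 with AMG900 (0.235, 0.273, 0 and 0.594 CPM against 1.80, 1.12, 1.40 and 1.16 CPM). It entered the test only through the group where it was high, so its log2 fold change of 2.15 ± 0.57 (adjusted p = 6.62e-03) is given as a description. The call held without DMSO replicate 1 or 4 and was lost without any 1 of the other 6 libraries (adjusted p up to 0.0213). COL28A1 was at 0.470 to 0.728 CPM in A549 with DMSO and 0.711 to 2.18 CPM with AMG900 (adjusted p = 0.0380). COL8A1, a short chain of vessel walls and the cornea, was at 28.8, 26.8 and 27.8 CPM in H1792 with DMSO and at 26.8, 27.7 and 25.8 CPM with AMG900 (-0.05, 95% interval -0.19 to 0.08), while it had at most 6 counts in any A549 library. COL8A2 was at 1.60 to 2.02 CPM in H1792 with DMSO, and COL10A1, the chain of growth plate cartilage, was under 1 CPM in every library. In H1792 the COL10A1 groups did not overlap, but the gene did not pass the test (1.40 ± 0.45, adjusted p = 0.0232). Without AMG900 replicate 3 it passed. COL10A1 entered the test only through its AMG900 libraries, so these values are given as a description. In all, 34 members were tested in at least 1 line, 17 in both and 10 in neither.

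The difference in the AMG900 effect between the lines was tested for 32 members in the fit over all 14 libraries. It was higher in H1792 for 0 members, beside 5.37% of all genes tested, and lower for 5 members, beside 9.17%. Of the 0, 2 had an unadjusted p under 0.05, and DESeq2 called 2, COL1A1 and COL4A2, as did edgeR with total counts or the GC offset. The 5 were COL4A5, COL7A1 and COL4A6, with the values above, COL15A1 (-1.16 ± 0.28, adjusted p = 5.40e-03) and COL16A1 (-0.96 ± 0.22, adjusted p = 3.33e-03). COL15A1 lost its call without A549 AMG900 replicate 1 or 2, A549 DMSO replicate 2 or 4, any 1 of the H1792 AMG900 libraries or H1792 DMSO replicate 3 (adjusted p up to 0.0271), and with total counts, the GC offset or a minimum of 10 counts in every library. COL16A1 lost it without A549 DMSO replicate 3 or 4 or H1792 AMG900 replicate 1 or 2 (adjusted p up to 0.0120). The median interaction was -0.52 over the members and -0.10 over all genes tested, and with DESeq2's size factors the median over all genes was -0.02.

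Summed over all members, collagen took 0.226% ± 0.0183 (SD, n = 4) of the counts in A549 with DMSO and 0.265% ± 0.0185 with AMG900, and 0.597% ± 0.0504 (SD, n = 3) and 0.457% ± 0.00553 in H1792. Summed CPM in A549 was 2523, 2082, 2135 and 2067 with DMSO and 2526, 2695, 2678 and 2998 with AMG900. In H1792 it was 6518, 5259 and 5752 with DMSO and 4632, 4689 and 4697 with AMG900. In summed CPM the groups did not overlap in either line, although A549 DMSO replicate 1 was level with the lowest AMG900 library. As a percent of counts the A549 groups did overlap, at 0.253% in DMSO replicate 1 and 0.245% in AMG900 replicate 1.

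The fibrillar share of the collagen counts was lower with AMG900 in both lines. In A549 it was 30.9%, 31.5%, 31.0% and 30.6% with DMSO and 21.5%, 22.5%, 21.6% and 20.6% with AMG900. In H1792 it was 74.8%, 74.4% and 74.5% with DMSO and 64.8%, 64.3% and 65.1% with AMG900. The sums behind the shares moved differently in each line. In A549 the mean fibrillar sum went from 682 to 586 CPM, while the other chains went from 1520 to 2138 CPM, a larger change. In H1792 the fibrillar sum went from 4357 to 3025 CPM. The other chains there went from 1486 to 1648 CPM, and their groups overlapped. These shares carry no GC offset and are given with no test, because they are sums over the chosen members. Per kb of transcript they were 26.6% and 17.9% in A549, and 75.7% and 64.0% in H1792. With COL1A1 and COL1A2 left out the shares were 27.8% and 20.3% in A549 and 31.5% and 24.5% in H1792, so most of the distance between the lines lay in those 2 genes.

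The classes took up the remainder differently. In A549 the anchoring fibril chain went from 5.84% ± 0.581 to 11.4% ± 0.523 of summed CPM per kb (SD, n = 4) and the beaded filament chains from 8.34% ± 0.329 to 12.1% ± 0.281, while the basement membrane chains were at 31.9% ± 2.21 and 30.1% ± 0.970 and the multiplexins at 26.0% ± 1.73 and 26.8% ± 1.02. In H1792 the beaded filament chains went from 10.7% ± 0.403 to 19.6% ± 0.485 (SD, n = 3) and the anchoring fibril chain from 6.47% ± 0.415 to 8.27% ± 0.277. Basement membrane chains made up 1.52% ± 0.101 and 1.501% ± 0.0461 there.

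**Figure D4:**
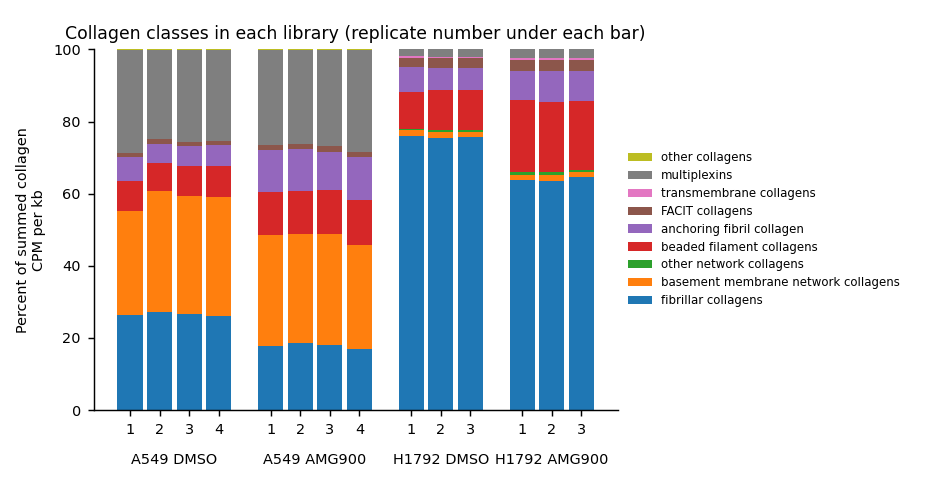
Share (percent) of the summed collagen CPM per kb of transcript taken by each class, with 1 bar per library and the replicate number below it. The fibrillar share at the bottom is near 26.6% and 17.9% in A549 and near 75.7% and 64.0% in H1792 for DMSO and AMG900, and multiplexins and basement membrane chains take most of the bar in A549.

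Transcript GC content moved with the AMG900 effect in both lines. Across 12788 genes in A549 and 14373 in H1792 the Spearman correlation of GC content with log2 fold change was 0.499 and 0.481, where genes share the libraries and are not independent replicates. The median GC content was 58.8% and 57.6% over the tested members, against 49.3% and 49.5% over all genes. With a smooth GC offset per library the median log2 fold change of the members was 0.18 in A549 and 0.05 in H1792, against -0.02 and -0.03 over all genes. In A549 the offset took the calls of COL4A2, COL16A1, COL26A1 and COL27A1 and added COL5A1 as lower. In H1792 it took those of COL4A2, COL6A3 and COL27A1 and added COL7A1, COL16A1 and COL18A1 as lower. The falls of COL1A1, COL1A2, COL3A1, COL4A5, COL4A6, COL5A1, COL12A1 and COL15A1 in H1792 and of COL1A1 and COL5A2 in A549 kept their calls. So did the rises of COL6A1 and COL6A2 in both lines, of COL4A5 and COL7A1 in A549 and of COL9A2, COL9A3 and COL17A1 in H1792. The part of GC content in the effects was not tested beyond this offset.

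**Figure D5:**
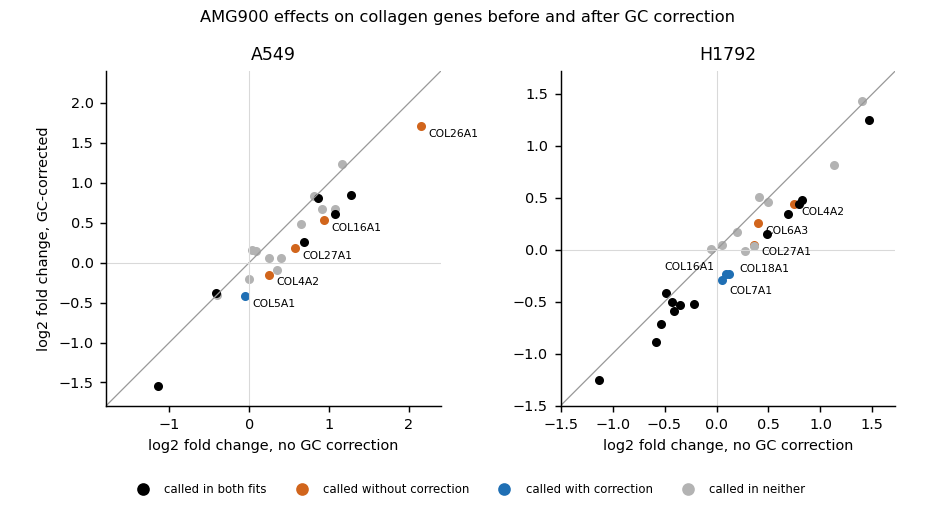
Log2 fold change of AMG900 against DMSO without (x axis) and with (y axis) the GC offset for the members tested in A549 (left) and H1792 (right), with the diagonal in gray. Most points lie below the diagonal, and named points are those called in only 1 of the fits, such as COL27A1 in both lines.

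The enzymes that fold and trim collagen were read from lists of known genes. Of 18 genes of procollagen folding and modification, all tested, 10 rose and 3 fell in A549, with a median log2 fold change of 0.38, and 5 rose and 4 fell in H1792, with a median of 0.05. For these lists and those of the next paragraph, 17.2% of all genes tested rose and 17.8% fell in A549, and 16.2% rose and 18.8% fell in H1792. The 3 that fell in A549 and the 4 that fell in H1792 are near those shares. P4HA1, PLOD2 and COLGALT1 fell in both lines. P4HA1, a catalytic subunit of prolyl 4-hydroxylase, went from 15.6 to 24.7 CPM with DMSO to 11.02 to 13.9 CPM with AMG900 in A549 (-0.61 ± 0.16) and from 22.6 to 27.6 CPM to 7.87 to 8.58 CPM in H1792 (-1.63 ± 0.09). PLOD2, the lysyl hydroxylase of collagen ends, changed by -0.74 ± 0.11 and -1.32 ± 0.10, and COLGALT1, a collagen galactosyltransferase, by -0.25 ± 0.07 and -0.33 ± 0.05. P4HA2, the other main catalytic subunit, rose in A549 (0.81 ± 0.08) and was at 0.05 ± 0.06 in H1792, and the collagen chaperones SERPINH1 and FKBP10 rose by 0.47 ± 0.06 and 0.76 ± 0.07 in A549.

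Procollagen trimming genes rose or were not called. BMP1, which removes the C-terminal propeptide, rose by 0.74 ± 0.07 in A549 and 0.46 ± 0.05 in H1792, and 3 of 4 tested genes rose in A549 and 3 of 8 in H1792. ADAMTS2, among the 3 in A549, was at 0.1495 to 3.095 CPM with DMSO and 3.29 to 5.67 CPM with AMG900. It passed the filter on low counts only through its AMG900 libraries, so its rise is given as a description. Of 5 lysyl oxidases, which cross-link fibrils, 1 rose in A549, a share near that over all genes, and 2 rose and 1 fell in H1792. LOX itself went from 193 to 205 CPM down to 151 to 162 CPM in H1792 (-0.37 ± 0.05). Of the collagen receptors, 2 rose and 1 fell among 7 in A549, and 1 rose and 2 fell among 8 in H1792, and the integrin chain ITGB1 fell in both (-0.96 ± 0.17 and -0.97 ± 0.08). Among collagen-degrading enzymes 1 of 3 tested rose in A549, MMP2 (0.93 ± 0.09), and 3 of 5 in H1792. MMP9, among the 3 in H1792, was at 0.0821 to 0.114 CPM with DMSO and 0.514 to 0.588 CPM with AMG900. It too passed the filter on low counts only through its AMG900 libraries, so its rise is given as a description. Of the proteoglycans that bind fibrils, none was tested in A549, and in H1792 DCN (-0.45 ± 0.08) and LUM (-1.20 ± 0.20) fell and BGN (1.61 ± 0.12) rose.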

How the data were processed

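RNA from 14 libraries was aligned and counted per gene by the authors. The submitters' processing notes name STAR, HTSeq and the build hg19 (GRCh37), with versions, annotation and strand setting not given in the sources used here. The deposited values are raw counts, 1 table per line. Of 26760 entries, 28 in the H1792 table are dates in place of symbols and were left out. Members and gene lists were chosen with earlier results of these data known. Values in every library are given for members called in either line and for the 6 highest per kb under DMSO in each.

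Counts were tested in edgeR 4.0.16 (R 4.3.3; TMM factors, filterByExpr, quasi-likelihood F-test) over all genes of a line, and over all 14 libraries for differences between lines, with Benjamini-Hochberg adjusted p under 0.01 as a call. The scripts were tested on simulated data. The common biological coefficient of variation was 12.8% in A549 and 9.60% in H1792. Alternatives were DESeq2 1.42.0, other scaling and filters, a GC spline offset with 5 degrees of freedom, a replicate block, and leaving out each library. Transcript length, GC content and positions came from the canonical GENCODE transcripts of GRCh37. The labels describe 3 replicates per treatment, while A549 has 4.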

Additional observations from a re-analysis of the deposited data

Results flagged for a closer look

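In 48 groups of 4 A549 values examined, 4 had a library beyond Dixon's critical value of 0.829, where chance gives about 1 in 20. COL18A1 was at 607 CPM in A549 DMSO replicate 1, against 431 to 456 CPM in the other DMSO libraries, and summed collagen was at 2523 CPM there, against 2067 to 2135 CPM. COL9A3 was at 0.237 CPM in A549 DMSO replicate 4 (4 counts) and at 0 in the other 3. COL6A3 was at 1.04 CPM in A549 AMG900 replicate 1 (11 counts), against 0.517 to 0.562 CPM. Replicate 1 of the DMSO group is the smallest library of the series, and the cause of its higher collagen values was not tested.

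The interaction test called 5 members as having a lower AMG900 effect in H1792 than in A549, at log2 differences of -1.36 for COL4A5, -1.31 for COL7A1, -1.16 for COL15A1, -0.96 for COL16A1 and -0.67 for COL4A6.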

How the results depend on the processing

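Among recomputed counts and shares, 139 stayed near the reported value and 21 moved. The minimum of 10 counts in every library is not among them for H1792 against A549, where it left 13 members tested. Among recomputed fold changes of single members, 471 kept their direction and their side of the threshold, 42 lost their call, 8 gained one and 28 changed sign. DESeq2 for H1792 against A549 was added after seeing the data and called 17 higher and 9 lower. A pairing of samples by replicate number was not seen. Same-numbered libraries had correlations of deviations between -0.0604 and 0.0425, and not every library correlated best with its own number. With so few libraries per group this cannot exclude a pairing. With the replicate number as a block, 6 members were higher and 2 lower in A549 (without COL4A2 and COL26A1), and 8 higher and 7 lower in H1792 (without COL5A1). The GC offset gave 4 higher in A549 and 5 in H1792, and with the block as well 4 and 2. COL6A1, COL9A2 and COL9A3 in H1792 kept their calls with the offset alone and lost them with offset and block together. The difference between the lines was called higher for 2 members with DESeq2, 2 with total counts, 1 with no filter and 2 with the GC offset. Scaling by total counts moved the share of higher among all calls from 49.2% to 39.6% in A549, from 46.3% to 36.5% in H1792 and from 36.9% to 48.6% for the difference between the lines, and shifted the median over all genes for H1792 against A549 by -0.11. The cause of these changes was not tested.

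Leaving out 1 library at a time gave 6 to 11 higher in A549 (11 without DMSO replicate 1) and 5 to 11 higher and 7 to 8 lower in H1792 (5 without AMG900 replicate 1, 11 without DMSO replicate 1). The difference between the lines was higher for 0 to 1 members (1, COL1A1, without H1792 DMSO replicate 1) and lower for 3 to 7 members (3 without A549 DMSO replicate 4 or H1792 AMG900 replicate 1 or 2). The fibrillar share per kb was 26.6% and 17.9% in A549 and 75.7% and 64.0% in H1792, and without COL1A1 and COL1A2 27.8%, 20.3%, 31.5% and 24.5%.

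Values that changed sign had not been called, apart from COL4A2 in A549, which went to -0.15 with the GC offset, with and without the block. With that offset, likewise in both fits, COL4A1 (-0.20) and COL18A1 (-0.09) turned in A549, and COL7A1 (-0.29), COL16A1 (-0.23) and COL18A1 (-0.23) in H1792. With total counts COL4A1 (-0.07) and COL12A1 (-0.05) turned in A549, and COL5A2 (-0.01) and COL7A1 (-0.01) in H1792. With 1 library left out COL12A1 ranged from -0.06 to 0.16, COL4A1 from -0.04 to 0.05 and COL5A1 from -0.09 to 0.01 in A549, and COL16A1 from -0.02 to 0.20, COL5A2 from -0.14 to 0.32 and COL7A1 from -0.06 to 0.17 in H1792. In A549 23 of the 44 members had enough counts to test, against 28 in H1792. The A549 libraries were smaller, and which chains were near 0 CPM also differed between the lines. The part of depth in these numbers was not tested.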
